A study of Mus musculus with 7 samples.

Results

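The genes described here are those with a higher transcript level in each of 3 tumors resistant to PD-L1 blockade than in any of 3 control tumors of the same mouse breast cancer model. A gene was a member when its lowest level in CPM (the gene's estimated count divided by the library total and multiplied by 1000000) in the resistant tumors exceeded its highest CPM in the control tumors. The mean of the resistant tumors also had to reach 2 times the mean of the control tumors, and at least 1 CPM. Of 53465 genes in the table, 247 met all parts of the rule, which is 1.70% of the 14518 genes with a mean of at least 1 CPM in the resistant tumors. The mirrored rule, with the groups exchanged, found 105 genes, or 0.747% of 14049. Because the members were chosen by these 6 tumors, their difference between the groups is given as a description and carries no test.

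EMT6 is a mammary carcinoma line of Balb/c mice, and 500000 cells were placed in the mammary fat pad of female Balb/c mice aged 6 to 8 weeks. EMT6-P tumors (n = 3) grew under isotype control antibody. EMT6-PTR tumors (n = 3) were of the variant with renewed growth after an initial response to anti-PD-L1 antibody and were collected under it. All animals of both groups, and the animal with the metastasis, received antibody at 250 μg per mouse every 3 days until endpoint. The labels call the resistant variant PDR, and whether its 3 tumors became resistant separately or grew from 1 selected population is not given in the sources used here. One further EMT6-PTR library is labelled as a metastasis, without its site, and was not used by the rule. Whole tumors were sequenced, and the labels do not say whether replicates came from separate experiments. The study's figure legend counts replicates as technical except where stated, and gives the tumor libraries only as n = 3. An SD over these libraries may therefore not measure the spread among independently resistant tumors.

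PD-L1 on tumor and myeloid cells engages PD-1 on T cells and restrains them, and antibodies to PD-L1 lift that restraint until a tumor adapts. A tumor library mixes carcinoma cells with fibroblasts, vessels and immune cells. Fibroblasts lay down the extracellular matrix of collagens, proteoglycans and glycoproteins, and matrix proteases, complement components and protease inhibitors are released into the same space. In such mixed tissue fewer cells of a type and less RNA per cell cannot be told apart.

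The promoters of 4 members are shown first, chosen by ratio (Col10a1, Il18r1 and Itga10) and by the gap between the groups (Ggt1) among the members considered that have a window in the RefSeq promoter table. Each runs 5′ to 3′ in mouse build GRCm38.p6 on the plus strand, from 250 bases before to 50 bases after the annotated start, and capitals mark letters that matched a searched motif. The Col10a1 window is chr10:34389731-34390030, that of Il18r1 is chr1:40465302-40465601, that of Itga10 is chr3:96645334-96645633, and that of Ggt1 is chr10:75563882-75564181. Il18r1 has 3 listed windows and Ggt1 has 4, of which the first is printed.
Col10a1: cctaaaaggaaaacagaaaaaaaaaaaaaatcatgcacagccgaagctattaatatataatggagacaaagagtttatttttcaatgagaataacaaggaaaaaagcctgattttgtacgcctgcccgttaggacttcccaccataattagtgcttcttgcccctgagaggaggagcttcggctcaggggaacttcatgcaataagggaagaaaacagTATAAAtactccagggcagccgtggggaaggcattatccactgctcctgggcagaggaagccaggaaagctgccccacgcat
Il18r1: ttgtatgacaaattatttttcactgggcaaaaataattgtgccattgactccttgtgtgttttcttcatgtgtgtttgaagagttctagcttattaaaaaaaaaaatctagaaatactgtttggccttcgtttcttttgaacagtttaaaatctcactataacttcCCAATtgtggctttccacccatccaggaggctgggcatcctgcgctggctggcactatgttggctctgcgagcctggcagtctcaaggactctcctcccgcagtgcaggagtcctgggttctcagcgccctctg
Itga10: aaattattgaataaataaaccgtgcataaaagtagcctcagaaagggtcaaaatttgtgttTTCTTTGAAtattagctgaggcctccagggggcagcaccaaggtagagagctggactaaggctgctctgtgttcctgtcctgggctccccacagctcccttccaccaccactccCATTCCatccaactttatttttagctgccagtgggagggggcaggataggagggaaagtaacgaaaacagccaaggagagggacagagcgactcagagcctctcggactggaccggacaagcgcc
Ggt1: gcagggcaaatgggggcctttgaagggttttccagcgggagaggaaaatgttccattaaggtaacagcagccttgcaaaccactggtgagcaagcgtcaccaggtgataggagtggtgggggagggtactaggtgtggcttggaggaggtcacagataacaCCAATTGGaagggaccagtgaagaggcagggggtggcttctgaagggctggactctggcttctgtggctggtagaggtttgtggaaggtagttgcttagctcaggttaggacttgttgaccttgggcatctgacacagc
In Col10a1 the capitals mark a TATA box, whose first base lies at position -32 from the start. In Il18r1 they mark a CCAAT box at -84, and in Ggt1 a pair of overlapping CCAAT boxes at -89 and -86. In Itga10 they mark a STAT site at -189 and a TEAD site at -75.

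Motifs were searched on both strands, and a match is a description of letters, not a site of binding. Of all 27025 promoter windows of this length, 14.2% held the TATA box (TATAAA), 37.9% the CCAAT box (CCAAT) and 35.9% the GC box (GGGCGG). The AP-1 motif (TGANTCA) was in 7.93%, the STAT motif (TTCNNNGAA) in 8.47% and the core of the interferon response element (GAAANNGAA) in 8.57%. The TEAD motif (GGAATG) was in 14.6%, the RUNX motif (TGTGGT) in 16.9% and the hypoxia element (ACGTG) in 19.7%. Windows were listed for 131 of the 247 members (53.0%), so a comparison of motif shares or base composition between the members and other genes is void and is not given.

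Before the members are described, the libraries that stood apart need to be named. Library totals ranged from 20430110 to 25213472 estimated counts. EMT6-PTR tumor 2 had 13.8% of its counts on the ribosomal RNA gene CT010467.1, against 0.433% to 1.35% in the other 6 libraries. These counts are part of the library total, so that they lower the CPM of every other gene in tumor 2. EMT6-PTR tumor 3 had a summed level of 14 proliferation genes of 266.7 CPM, against 1183 to 1792 CPM in the other primary tumors, and a summed level of 14 fibroblast markers of 17160 CPM, against 3596 to 5701 CPM. EMT6-PTR tumor 1 held 7457 CPM of 20 skeletal muscle markers, against 14.9 to 953 CPM in the other primary tumors. In the metastasis 14 lung epithelial markers summed to 9841 CPM, against 49.5 to 111 CPM in the primary tumors. The part of these differences in the levels of the members was not tested. Over the whole table, edgeR's quasi-likelihood test with upper-quartile scaling called 0 of 15645 genes (0%) between EMT6-PTR and EMT6-P at an adjusted p under 0.05. At an unadjusted p under 0.05 it held 914 genes higher and 872 lower, limma-voom also called 0, and DESeq2 called 281 (1.80%), of which 138 were higher and 143 lower.

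Most members differed by a moderate factor. Among the 242 members with at least 3 counts over the EMT6-P tumors, the ratio of mean EMT6-PTR to mean EMT6-P CPM had a median of 2.85, which is 1.51 on the log2 scale, with quartiles of 2.29 and 4.53. It reached 4 in 75 members, 8 in 21 and 16 in 14. The separation, which is the lowest EMT6-PTR CPM divided by the highest EMT6-P CPM, had a median of 1.27, was under 1.1 in 52 members and reached 2 in 25. Thus the lowest resistant tumor was often close to the highest control tumor, although the rule placed it above. For comparison, 1102 of the 14518 genes (7.59%) had EMT6-PTR levels above every EMT6-P level without a limit on the ratio.

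**Figure D1:**
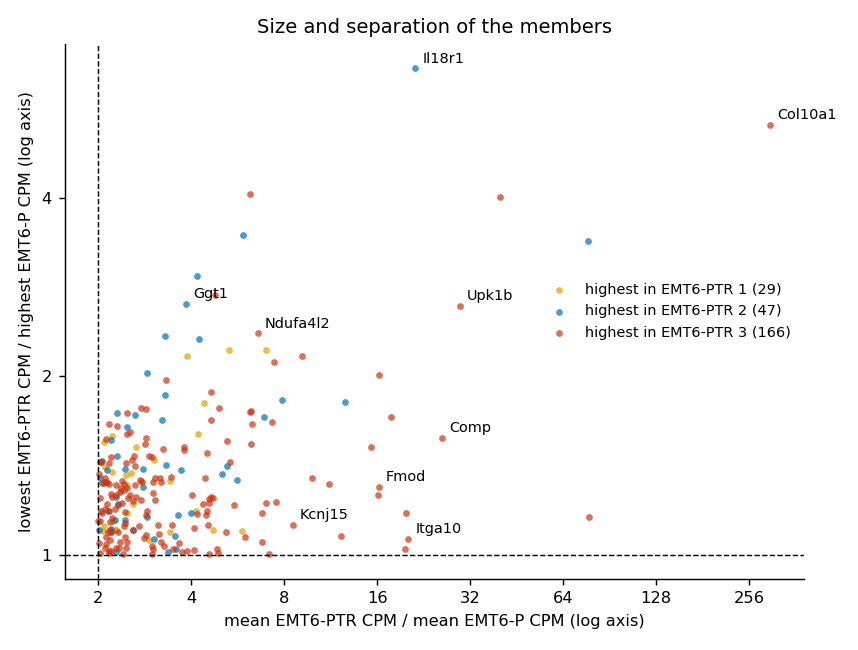
Each point is 1 of the 242 members with at least 3 counts over the EMT6-P tumors, placed by the ratio of group means (horizontal, log axis) and by the separation of the groups (vertical, log axis), and colored by the EMT6-PTR tumor in which it was highest. Dashed lines mark the limits of the rule, and most points lie near both, while Il18r1 and Col10a1 lie far above the limit on separation.

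The limits of the rule divided genes with nearly equal values. Spata33 and Tulp1 had separations of 1.0007 and 1.0023 and were members, whereas Slc17a7 and Smim1, at 0.9979 and 0.9938, were not. The ratios of Mical3 and Crebl2 were 2.0041 and 2.0065, just inside, and that of Sik1 was 1.9965, just outside. Heph and Gm22009 had mean EMT6-PTR levels of 1.01 and 1.02 CPM, and Flvcr2 and Cd28, at 0.998 and 0.987 CPM, fell short of the lowest level.

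The 3 resistant tumors did not carry the members evenly. EMT6-PTR tumor 3 was the highest of the group for 169 members, tumor 2 for 48 and tumor 1 for 30, whereas over all genes at or above 1 CPM the shares were 43.0%, 9.75% and 47.3%. The median log2 ratio to the EMT6-P mean over the members was 0.99 in tumor 1, 1.10 in tumor 2 and 1.97 in tumor 3, beside 0.09, -0.22 and -0.01 over all such genes. The shares and medians of tumor 2 include the lowering by CT010467.1. Of the 242 members, 56 (23.1%) reached 2 times the EMT6-P mean in every EMT6-PTR tumor, 106 in a pair of them and 80 in only 1, which was tumor 3 for 70. Of 14497 genes with the same lowest level and counts, 58 (0.400%) reached it in every EMT6-PTR tumor and 1445 in tumor 3 alone. Over all genes 4.40%, 3.65% and 12.4% reached it in tumors 1, 2 and 3, against 49.6%, 54.5% and 86.0% of the members. In 126 members the level in tumor 3 exceeded the levels of tumors 1 and 2 added together, which is 51.0% of the members and 12.4% of all genes. Only 60 members (24.8%) had their 3 EMT6-PTR levels within a factor of 2, against 62.4% of all genes. With tumor 3 left out, the median log2 ratio of the members was 1.17, and 150 of them still had a mean of at least 2 times the EMT6-P mean.

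**Figure D2:**
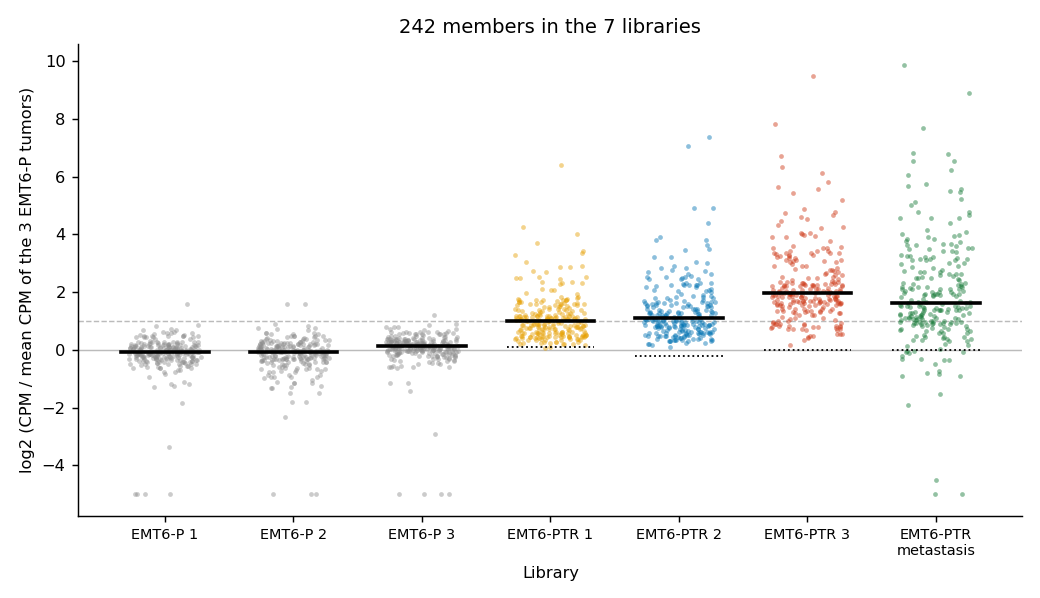
Each point is a member in 1 library, as log2 of its CPM over the mean CPM of the 3 EMT6-P tumors, and points on the lowest line are at or below that edge of the axis. Solid bars are medians of the 242 members, 0.99, 1.10 and 1.97 in EMT6-PTR tumors 1, 2 and 3 and 1.61 in the metastasis, and dotted bars are the medians of all genes with a mean of at least 1 CPM, which lie near 0.

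Il18r1 and Susd2 were among the members that all resistant tumors shared. Il18r1, a subunit of the receptor for interleukin 18, had 1.47, 0.775 and 0.630 CPM in EMT6-P tumors 1 to 3 and 9.70, 29.1 and 22.1 CPM in EMT6-PTR tumors 1 to 3. Its group means were 0.957 ± 0.446 and 20.3 ± 9.83 CPM (SD, n = 3 each), a ratio of 21.2, and its separation of 6.62 was the widest of all members with a ratio. No EMT6-PTR tumor was near the control range, and without tumor 3 the ratio was 20.3. Susd2, a membrane protein with a sushi domain, had 12.4, 10.7 and 13.9 CPM in EMT6-P and 41.1, 60.7 and 52.4 CPM in EMT6-PTR tumors. Here the resistant tumors lay close together, with a ratio of 4.17. Ggt1, the cell-surface enzyme that breaks down glutathione outside the cell, had 1.27, 1.09 and 1.12 CPM in EMT6-P and 3.45, 6.61 and 3.37 CPM in EMT6-PTR tumors. Its separation was 2.66, and its position next to Susd2 on chromosome 10 is a feature that the rule did not use.

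The extracellular matrix and its enzymes made up 21 members with a median ratio of 4.29. The roles were assigned after the members were known. Of 50 measured matrix proteoglycans and glycoproteins in a list, 8 were members (16%), with a median log2 ratio over the list of 0.80, beside 0.01 over all genes. The share of members among all genes was 1.70%. Of 33 measured genes in a list of matrix proteases and inhibitors 5 were members (15.2%). They were Adamts1, Adamts5, Adamts15, Adamtsl5 and Lox, of which Adamtsl5 and Lox are not proteases. The median log2 ratio of that list was nevertheless -0.07, and 16 of its genes were above zero. Of 23 measured collagens Col10a1 was the single member (4.35%). In 19 of the 21 matrix members EMT6-PTR tumor 3 was the highest.

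Col10a1 encodes a network-forming collagen that is typical of hypertrophic cartilage. It had 0, 0.228 and 0 CPM in EMT6-P tumors, 5 estimated counts in all, and 1.21, 12.7 and 54.4 CPM in EMT6-PTR tumors 1 to 3. The ratio of 299.5 therefore rests on 1 control tumor with any count. All resistant tumors were above the controls, but they spanned a wide range, and the metastasis had 0.163 CPM, within the control range.

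Mgp, Fmod and Comp are matrix proteins of cartilage and tendon. Mgp, the matrix Gla protein that inhibits mineral deposition, had 9.87, 8.297 and 20.41 CPM in EMT6-P and 23.7, 60.4 and 2901 CPM in EMT6-PTR tumors. Fmod, a proteoglycan that binds fibrillar collagen, had 3.91, 3.33 and 10.8 CPM in EMT6-P and 14.1, 17.96 and 259.7 CPM in EMT6-PTR tumors. Comp, a cartilage glycoprotein, had 0.342, 0.0912 and 0.533 CPM in EMT6-P and 0.840, 1.91 and 22.3 CPM in EMT6-PTR tumors. In all 3 genes tumor 1 was the nearest to the controls and tumor 3 was far above the rest. The separation was 1.159 for Mgp, 1.303 for Fmod and 1.575 for Comp. Without tumor 3 the ratio of Mgp went from 77.4 to 3.27, that of Fmod from 16.2 to 2.66 and that of Comp from 25.9 to 4.27.

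Some markers of matrix-forming cells were high in the same tumor and others were low. The 14 fibroblast markers, of which 13 were measured at 1 CPM or more and only Pi16 was a member, summed to 4654, 5701 and 17160 CPM in EMT6-PTR tumors 1 to 3. The 12 tenocyte and chondrocyte markers, of which 6 were measured, summed to 119, 267 and 1118 CPM, against 99.2 to 146 CPM in EMT6-P tumors. In tumor 3, 9 of the 13 measured fibroblast markers were above every EMT6-P tumor, with Col3a1 at 9225 CPM and Dcn at 3396 CPM making up most of the sum, and 3 were below every EMT6-P tumor. Thy1 was one of these, at 6.78 CPM in tumor 3 against 63.3 to 111 CPM in EMT6-P tumors. Of the 6 measured tenocyte and chondrocyte markers 4 were above, led by Col11a1 at 777 CPM and Fmod, and 2 were below. These 2 were Scx, at 11.6 CPM against 33.6 to 52.9 CPM, and Sox9, at 36.3 CPM against 48.2 to 81.6 CPM. Fmod and Comp belong to that list, and Tnmd, a defining tenocyte gene, was at 0 in all 3 EMT6-PTR tumors. The part of these cells in the matrix members was not tested.

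Lox and Ccn2 had ample counts in every tumor. Lox, the enzyme that cross-links collagen, had 138, 141 and 146 CPM in EMT6-P and 233, 359 and 459 CPM in EMT6-PTR tumors. The control tumors differed little (SD 3.91 CPM), all resistant tumors lay well apart from them, and the ratio was 2.48. Ccn2, a secreted factor induced by TGF-β and YAP signaling, had 262, 281 and 300 CPM in EMT6-P and 355, 592 and 2853 CPM in EMT6-PTR tumors. Its EMT6-PTR mean was 1266 ± 1379 CPM (SD, n = 3), with tumor 3 far above the other two.

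The ADAMTS proteases cut matrix proteoglycans, and 4 genes of that family and its relatives were members. Adamts1 and Adamts5, which lie within 100000 bases of each other on chromosome 16, had ratios of 2.50 and 4.86. Adamts5 had 19.8, 16.7 and 27.5 CPM in EMT6-P and 28.1, 65.5 and 217.5 CPM in EMT6-PTR tumors. Adamts15 had a ratio of 4.19 and Adamtsl5, a relative without protease activity, of 2.17. Adamtsl5 was the most even, with 14.9, 13.5 and 14.4 CPM in EMT6-P and 31.5, 24.7 and 36.6 CPM in EMT6-PTR tumors.

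Complement, coagulation and protease inhibitors made up 12 members with a median ratio of 2.62. Of 32 measured complement and coagulation genes 6 were members (18.8%), and of 22 measured serpins and other inhibitors 4 (18.2%), beside 1.70% of all genes. C1s1, the protease of the first complement component, had 91.4, 103 and 84.2 CPM in EMT6-P and 106, 182 and 301 CPM in EMT6-PTR tumors. Its neighbors C1s2 and C1rl on chromosome 6 had ratios of 2.11 and 2.29, beside 2.11 for C1s1. C1s1 and C1s2 are near-identical copies among which RSEM divides reads, so that their separate values are uncertain. Serpinf1, the antiangiogenic factor PEDF, had 204, 260 and 328 CPM in EMT6-P and 401, 343 and 852 CPM in EMT6-PTR tumors. Its tumor 2 was near the highest control, with a separation of 1.05. Wfdc1, a small secreted protease inhibitor, was scarce in EMT6-P, at 0.635, 0.137 and 0.388 CPM, and had 2.80, 2.55 and 41.1 CPM in EMT6-PTR tumors. Its separation of 4.01 was among the widest.

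Among secreted ligands, Il33 was the single member of 39 measured cytokines and chemokines (2.56%), a share near the 1.70% of all genes. Il33, an alarmin of the interleukin 1 family, had 4.98, 3.60 and 6.50 CPM in EMT6-P and 13.1, 46.6 and 185 CPM in EMT6-PTR tumors. The groups were 2.01 times apart at their nearest, the ratio was 16.2, and without tumor 3 it was 5.93. Growth factors gave 5 members of 38 measured (13.2%), which were Egf, Inhbe, Gdf3, Ccn2 and Ccn3. Egf, a ligand of the epidermal growth factor receptor, had 0.391, 0.365 and 0.533 CPM in EMT6-P and 2.84, 0.587 and 2.66 CPM in EMT6-PTR tumors. Gdf3, a ligand of the TGF-β family, had 1.51, 2.33 and 1.41 CPM in EMT6-P and 9.98, 5.38 and 2.54 CPM in EMT6-PTR tumors. Tumor 1 was thus the highest for both, unlike most members, and tumor 3 was nearest to the controls for Gdf3. Inhbe, an activin subunit, had 0.684, 0 and 1.12 CPM in EMT6-P and 2.01, 8.47 and 1.90 CPM in EMT6-PTR tumors, with tumor 2 highest.

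**Figure D3:**
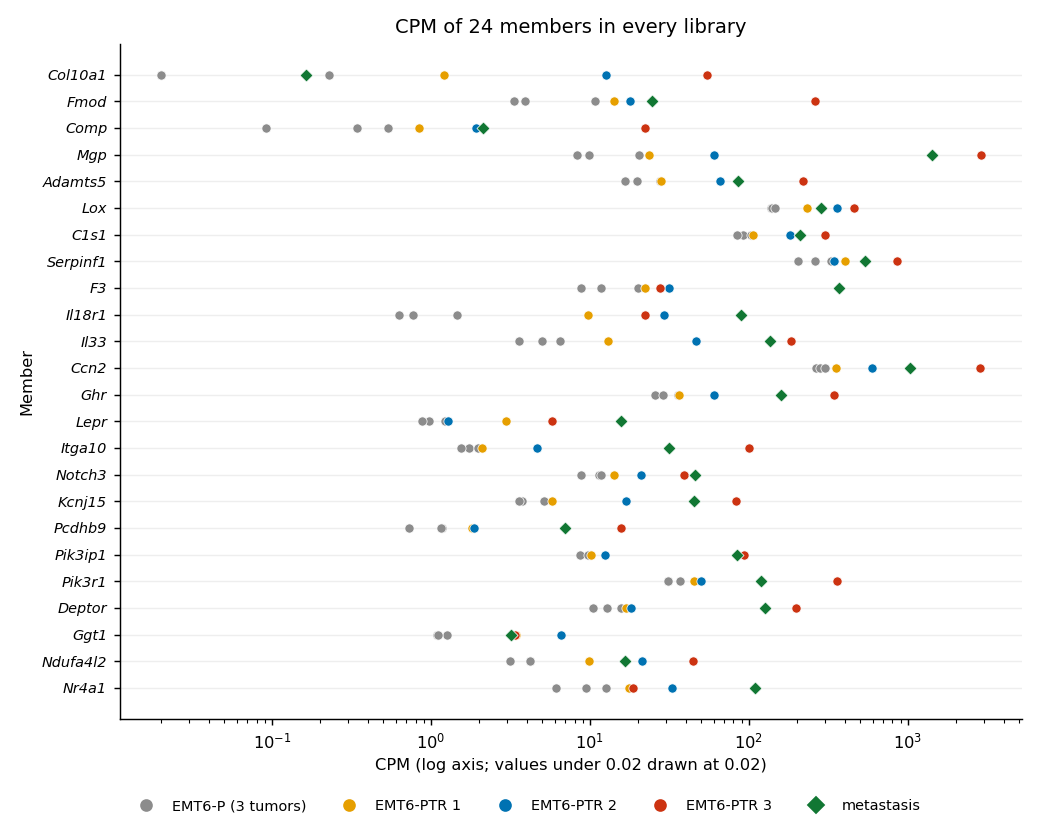
CPM (horizontal, log axis) of 24 members in each library, with EMT6-P tumors in gray, EMT6-PTR tumors 1, 2 and 3 in orange, blue and red, and the metastasis as a green diamond. The red points reach furthest right for most matrix genes and signaling genes, while Il18r1, Ggt1, F3 and Nr4a1 have another EMT6-PTR tumor highest.

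Receptors and other surface proteins contributed 22 members with a median ratio of 4.66. Ghr, the growth hormone receptor, had 35.9, 25.6 and 28.9 CPM in EMT6-P and 36.2, 60.3 and 344 CPM in EMT6-PTR tumors. Lepr, the leptin receptor, had 0.977, 1.23 and 0.873 CPM in EMT6-P and 2.99, 1.27 and 5.79 CPM in EMT6-PTR tumors. For each of these cytokine receptors 1 resistant tumor nearly met the highest control, with separations of 1.01 for Ghr and 1.03 for Lepr. Itga10, the α subunit of a collagen-binding integrin of cartilage, had 1.74, 1.55 and 1.97 CPM in EMT6-P and 2.10, 4.67 and 99.6 CPM in EMT6-PTR tumors. Its ratio of 20.2 dropped to 1.93 without tumor 3, which is under the limit of the rule. Notch3, a Notch receptor of pericytes and smooth muscle, had a ratio of 2.33, while the 13 smooth muscle and pericyte markers summed to 189 CPM in EMT6-PTR tumor 3 and to 777 to 1389 CPM in the other primary tumors. Notch3 was the one member of that list, and its level in tumor 3 was 39.0 CPM against 14.2 and 21.1 CPM in tumors 1 and 2.

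The lymphocyte receptors Cd8a, Cd79a and Tnfrsf13c were members with low counts. Cd8a, the α chain of the coreceptor of cytotoxic T cells, had 1.03, 0.547 and 0.630 CPM in EMT6-P and 1.96, 3.18 and 1.19 CPM in EMT6-PTR tumors. Cd3e, which all T cells need for their receptor, was no member, at 0.547 to 0.684 CPM in EMT6-P and 0.600, 2.01 and 0.397 CPM in EMT6-PTR tumors. Cd79a, part of the B cell receptor, had 0.175, 0.274 and 0.146 CPM in EMT6-P and 0.467, 4.20 and 5.88 CPM in EMT6-PTR tumors. Tnfrsf13c, the BAFF receptor, had the same tumor order, with 0.537, 0.410 and 1.31 CPM in EMT6-P and 1.63, 3.72 and 5.32 CPM in EMT6-PTR tumors. The 12 B and plasma cell markers, Cd79a included, summed to 20.2 to 24.2 CPM in EMT6-P and to 24.5, 95.4 and 11.9 CPM in EMT6-PTR tumors. The sum was thus highest in tumor 2, where the immunoglobulin light chain gene Igkc had 55.5 CPM, and lowest in tumor 3, where Cd79a was highest. The part of B cells in the level of Cd79a was not tested. Of 41 measured type I interferon-stimulated genes 0 were members and 2 were above every control in all EMT6-PTR tumors, beside 1.70% and 7.59% of all genes. The median log2 ratio of that list was 0.22, with 33 of its genes above zero. Of 35 measured genes induced by interferon gamma only Gbp10, a guanylate-binding protein, was a member, and of 27 measured receptors of the interleukin 6 family, JAK kinases, STATs and SOCS genes 0 were. In lists of this size these counts of members are near the share of members among all genes. Most genes of the lists were nevertheless above zero, with 27 of the 35 and 20 of the 27. Their median log2 ratios were 0.19 and 0.23, beside 0.01 over all genes.

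A group of 10 members acts in signaling through PI3K, mTOR or FoxO factors or in cell death, with a median log2 ratio of 0.69 and 0.76 in EMT6-PTR tumors 1 and 2 and of 3.17 in tumor 3. This group was assembled after the members were seen, so that its count is no result. Pik3r1, the regulatory subunit of PI3K, had 30.8, 31.0 and 37.0 CPM in EMT6-P and 45.2, 50.02 and 357.5 CPM in EMT6-PTR tumors. Pik3ip1, an inhibitor of PI3K, had 8.69, 10.0 and 9.79 CPM in EMT6-P and 10.2, 12.5 and 93.8 CPM in EMT6-PTR tumors. Deptor, an inhibitor of mTOR, had 15.7, 10.4 and 12.8 CPM in EMT6-P and 16.8, 18.2 and 196.7 CPM in EMT6-PTR tumors. In each of the 3 genes tumors 1 and 2 sat only a little above the control range. The ratio of Pik3r1 without tumor 3 was 1.45, that of Pik3ip1 1.20 and that of Deptor 1.35, so that their place among the members rested on tumor 3. Trp53inp1, a stress protein induced by p53, followed the same order with a ratio of 2.66. Bmf, a proapoptotic protein with a BH3 domain, had a ratio of 3.73 and was also highest in tumor 3. Its lowest resistant level was in tumor 2, at 6.02 CPM, next to the highest control at 5.96 CPM.

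**Figure D4:**
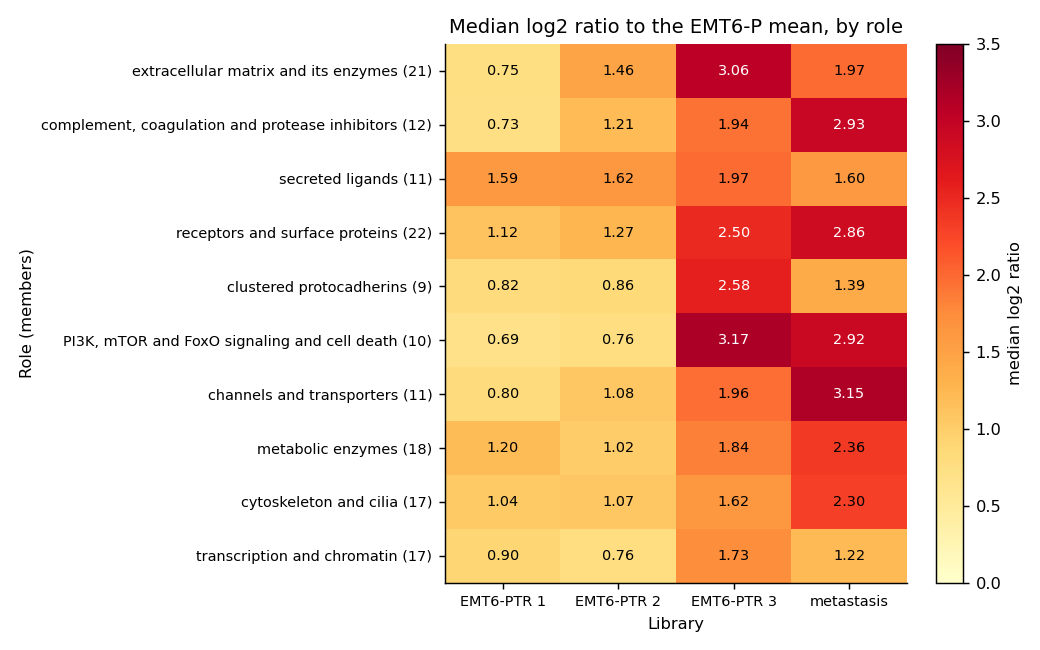
Median log2 ratio to the EMT6-P mean for 10 roles of members (rows, with the number of members) in EMT6-PTR tumors 1 to 3 and in the metastasis (columns). Tumor 3 has the highest primary value in every row, from 1.62 to 3.17, and secreted ligands are the most even row, at 1.59, 1.62 and 1.97.

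Channels, transporters, enzymes and the cytoskeleton gave further members of moderate size. Slc6a6, the taurine transporter, had 169, 223 and 220 CPM in EMT6-P and 307, 239 and 951 CPM in EMT6-PTR tumors, a ratio of 2.45. Kcnj15, a potassium channel, had 3.76, 5.11 and 3.59 CPM in EMT6-P and 5.74, 17.0 and 83.4 CPM in EMT6-PTR tumors, with tumor 3 again highest. Among 18 metabolic enzymes the tumors were more even, with median log2 ratios of 1.20, 1.02 and 1.84. Ndufa4l2, a mitochondrial protein induced by hypoxia, had 4.20, 4.19 and 3.15 CPM in EMT6-P and 9.94, 21.2 and 44.7 CPM in EMT6-PTR tumors. All 3 resistant tumors exceeded 2 times the EMT6-P mean for it, and its separation was 2.37. Krt17, a keratin of basal and stressed epithelium, had 9.28, 3.56 and 6.90 CPM in EMT6-P and 33.6, 198 and 16.8 CPM in EMT6-PTR tumors. It was highest in tumor 2, and the remaining keratins of the list of 20 mammary and surface epithelial markers were no members.

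Transcription and chromatin genes gave 17 members with a median ratio of 2.39, none above 4.42. Nr4a1, an immediate early nuclear receptor, had 6.11, 9.39 and 12.6 CPM in EMT6-P and 17.5, 32.6 and 18.6 CPM in EMT6-PTR tumors. It was the single member of 15 measured genes of the stress and dissociation response, whose median log2 ratio was -0.25. Tcf7l1, a repressor of Wnt target genes, had 6.89, 7.29 and 8.49 CPM in EMT6-P and 11.5, 11.3 and 49.8 CPM in EMT6-PTR tumors. The clock repressors Cry2 and Ciart had ratios of 2.03 and 2.16. They were the only 2 members of 17 measured clock genes, in a list written after the members were known. The median log2 ratio of that list was 0.36, and 14 of its genes were above zero.

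Clustered protocadherins were the densest group by position. These cell adhesion proteins of neural and other tissue are encoded in tandem arrays on chromosome 18, and 9 of the 20 measured genes of the family were members, 7 of the β and 2 of the γ array. The family was noticed after the members were known. Its 20 measured genes had a median log2 ratio of 1.30, and 19 were above 0. Pcdhb9 had 0.733, 1.17 and 1.16 CPM in EMT6-P and 1.80, 1.86 and 15.6 CPM in EMT6-PTR tumors. All 9 members were highest in tumor 3, where their median log2 ratio was 2.58, against 0.82 and 0.86 in tumors 1 and 2. Neighboring genes of the cluster are similar in sequence and those of the γ array share exons, so that RSEM's division of reads among them is uncertain. Chromosome 18 held 19 members, of which 9 were in this cluster. They were 5.43% of its measured genes, the highest share of any chromosome, and the others ranged up to 2.90%. In all, 34 members had another member within 100000 bases. No share over other genes was computed beside this count, so that it is no result about clustering.

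Protein-coding genes made up 195 of the members, pseudogenes 23 and noncoding and other transcripts 29, which include 1 gene without an annotated position. Protein-coding genes were 78.9% of the members and 87.7% of all genes at or above 1 CPM. Pseudogenes were 9.31% and 6.74%, and noncoding and other transcripts with a position were 11.3% and 5.49%. The 23 pseudogenes all had fractional estimated counts, against 31.8% of the protein-coding members. EMT6-PTR tumors 1, 2 and 3 were the highest for 9, 7 and 7 pseudogenes, whereas tumor 3 was the highest for 138 of the 195 protein-coding members. Gm20784 and Gm21378 had identical values in all libraries and are not separate measurements. In all, 31 members overlapped another measured gene on the same strand, a count for which no share over all genes was computed. Gm49369, which overlaps the cathepsin gene Ctsd, had 0.767, 0 and 0 CPM in EMT6-P and 21.8, 34.4 and 2.598 CPM in EMT6-PTR tumors. Ctsd itself had a ratio of 0.987, at 554 to 626 CPM in EMT6-P and 486 to 713 CPM in EMT6-PTR tumors. The level of Gm49369 is small beside that of Ctsd, and RSEM divides the reads that both could give.

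Another 5 members had fewer than 3 counts over all EMT6-P tumors, and their size is only bounded or unknown. Gm45234, which overlaps Atn1 and Grcc10, had 0 counts in EMT6-P and 13.03, 16.6 and 1.61 CPM in EMT6-PTR tumors. Its EMT6-PTR mean was 219 times a floor of 3 counts over the group. That floor covers counting error only, and RSEM divides the reads that overlapping genes could share, so that 219 is no lower bound here. Atn1 had 93.2 to 111 CPM in EMT6-P and 112 to 152 CPM in EMT6-PTR tumors. Grcc10 had 36.8 to 42.2 CPM in EMT6-P and 30.3 to 59.7 CPM in EMT6-PTR tumors. Tmem52, a membrane protein, had 0 counts in EMT6-P and 67, 4 and 4 counts in EMT6-PTR tumors, at least 24.4-fold higher against the same floor, with nearly all of it in tumor 1. Papln, a matrix protein, had 1 count in EMT6-P and 0.140, 0.441 and 13.7 CPM in EMT6-PTR tumors. Folr1, the folate receptor α, had 1 count in EMT6-P and 0.0467, 0.343 and 12.2 CPM in EMT6-PTR tumors. For both, tumor 3 held nearly the whole level. Folr1 also had 1 count in EMT6-PTR tumor 1, so that library totals alone placed that tumor above the controls. The antisense transcript Gm11175 had 0.01 estimated counts in EMT6-P and 0.481, 1.59 and 4.69 CPM in EMT6-PTR tumors. A further limit is depth, since 53 of the 247 members had a mean EMT6-P count under 10, and 64 had a mean of at least 100.

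The metastasis is the only library that the rule did not use, although it is compared with the same EMT6-P tumors and has no replicate. Of the 247 members 180 (72.9%) had at least 2 times the EMT6-P mean there, against 14.9% of the 14518 genes at or above 1 CPM, and 218 (88.3%) were above every EMT6-P tumor, against 41.0%. The median log2 ratio of the metastasis to the EMT6-P mean was 1.61 over the members and -0.02 over all such genes. It lay above all EMT6-PTR tumors for 65 members, within their range for 128, between the groups for 25, within the EMT6-P range for 21 and below it for 8. Among the 70 members that reached 2 times the EMT6-P mean in EMT6-PTR tumor 3 alone, 54 (77.1%) did so in the metastasis too, against 50.4% of all 1445 genes with that pattern. Among the 24 members that reached it in tumors 1 and 2 but not in tumor 3, 7 (29.2%) did, against 36.4% of all 66 such genes.

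The 5 members highest in the metastasis relative to EMT6-P were Spock2, Ager, Cyp4b1, Zbtb16 and Mgp. Spock2, a matrix proteoglycan, had 180 CPM there against 0 to 0.293 CPM in EMT6-P and 0.294 to 3.17 CPM in EMT6-PTR tumors. Ager, a receptor that marks alveolar type 1 cells, had 770 CPM there against 1.41 to 1.84 and 3.36 to 22.9 CPM. Cyp4b1, a cytochrome P450 of lung epithelium, had 94.6 CPM there against 0.319 to 0.679 and 0.759 to 2.18 CPM. These 3 were far outside the range of the primary tumors, and Zbtb16 and Mgp were at 114 and 111 times their EMT6-P means. Spock2 was a member by library totals alone, since EMT6-P tumor 1 and EMT6-PTR tumor 2 both had 6 counts. Of the 14 lung epithelial markers 0 were at 0 in the metastasis, and the surfactant gene Sftpc had 2389 CPM there and 0 in the 3 EMT6-PTR tumors. Markers of erythroid cells and platelets summed to 7980 CPM in the metastasis against 60.2 to 345 CPM in the primary tumors, and those of neutrophils and mast cells to 2754 against 34.3 to 62.5 CPM. Hdc, the histamine-forming enzyme of mast cells and neutrophils, and F3, the tissue factor that starts coagulation, had 199.9 and 369 CPM in the metastasis, which is 75.3 and 27.4 times their EMT6-P means. The part of these cell types in the level of the members was not tested.

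**Figure D5:**
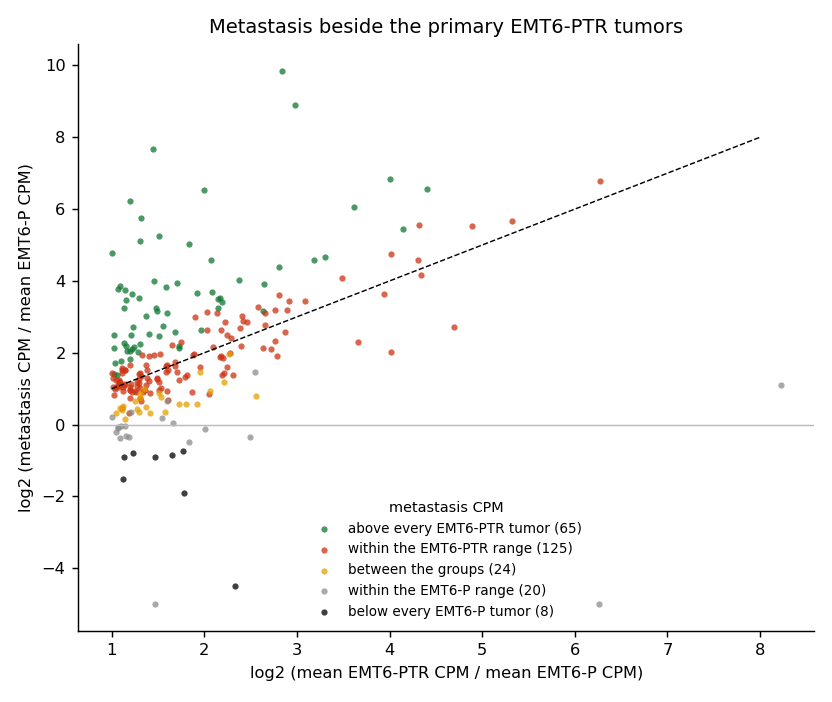
For each of the 242 members with at least 3 counts over EMT6-P, log2 of the EMT6-PTR ratio (horizontal) against log2 of the metastasis ratio (vertical), both to the EMT6-P mean and therefore sharing it. Colors give the position of the metastasis level among the primary tumors, the dashed line marks equal ratios, and 2 members listed at 0 in the metastasis are drawn at the lower edge.

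Other members were at levels in the metastasis like those in EMT6-PTR tumors. Il33 had 136 CPM there, Mgp 1428 CPM and Pik3ip1 83.8 CPM, each between EMT6-PTR tumors 2 and 3. Il18r1 had 89.6 CPM, above every primary tumor. The members lowest in the metastasis relative to EMT6-P were Gm49369 and Gm14440, both listed at 0, Megf10, Rpl17-ps9 and Sncaip. Megf10, a phagocytic receptor, had 5.13, 5.11 and 9.02 CPM in EMT6-P, 32.5, 52.2 and 12.3 CPM in EMT6-PTR tumors and 0.285 CPM in the metastasis. It was thus higher in all resistant primary tumors and below every control in the metastasis. Cilp, a cartilage matrix protein, had 3.33 CPM in the metastasis, also below the 4.25 to 9.07 CPM of EMT6-P tumors.

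The study had drawn up a preliminary list of genes for secreted proteins on these samples, so that its overlap with the members is not independent evidence. Of its 128 measured genes 41 (32.0%) were members, against 1.70% of all genes, and the median log2 ratio of the list was 1.81. Of the 10 measured genes of its shorter enriched list 0 were members, and their median log2 ratio was 0.28. The study started that shorter list from RNA sequencing of these tumors. It then used cultured cells, by protein array, qRT-PCR, western blot and ELISA. The counts given here describe the tumor RNA under the present rule only. They are no independent test of the list and do not cover the assays on cultured cells.

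The choice of members depended most on EMT6-PTR tumor 3. Under upper-quartile, TMM and DESeq2 scaling and under totals without CT010467.1 the rule gave 252 to 297 members. Of these, 222 to 245 were among the 247, and totals without CT010467.1 gave the most members, 297. The median log2 ratio of all genes stayed between 0.01 and 0.07. When each of the 6 tumors was left out in turn, 97 of the 247 members (39.3%) met the rule every time. Without EMT6-PTR tumor 3 the rule gave 275 genes, of which 137 were among the 247, whereas 226 to 235 of the 247 met it when any one of the remaining 5 tumors was left out.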

How the data were processed

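Stranded libraries of polyadenylated RNA were sequenced for 3 tumors of each primary group and for the 1 metastasis. The authors checked reads with FastQC 0.11.5, aligned them to GRCm38 with STAR 2.6.0a and estimated counts per gene with RSEM 1.3.1, and the deposited values are these expected counts, not filtered or normalized. Reads that fit several genes were divided by estimation. Groups follow the sample labels. CPM here is the estimated count over the library total, and the rule for members was applied to it. Symbols, positions and classes were taken from GENCODE M21, and promoters from RefSeq, both on GRCm38. Library totals were 20430110 to 25213472, at which a floor of 3 counts over the EMT6-P group is 0.0476 CPM, covering counting error only. The test over all genes used edgeR 4.0.16 in R 4.3.3 on rounded counts with filterByExpr, upper-quartile factors and Benjamini-Hochberg adjustment, with DESeq2 1.42.0 and limma 3.58.1 as alternatives, and was tested on simulated data.

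Members and gene lists were chosen with earlier results of these data known. Named genes are the members largest by ratio (12), level (10) and separation (10), up to 3 per gene list and 5 of the study's secretory list by separation, genes nearest each limit of the rule (2 on each side) and the 5 highest and 5 lowest in the metastasis. A gene next to a limit is not reported here. Other genes were named after their values were seen, to describe a role or an overlap. Alternatives were other scalings, folds of 1.5 and 3, lowest means of 0.5 and 5 CPM or none, 1 CPM added to both means, each tumor left out, other filters, the metastasis as an additional group and a replicate block. Python 3.11.15 was used for tables and plots.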

Additional observations from a re-analysis of the deposited data

How the results depend on the processing

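The rule gave between 252 and 345 members under the scalings and with a lowest mean of 0.5 CPM, but 538 with a fold of 1.5, 117 with a fold of 3, 118 with a lowest mean of 5 CPM, 740 with no lowest mean and 133 with 1 CPM added to both means. Leaving out 1 tumor gave 275 to 634 members, with 397 when EMT6-P tumor 3 was dropped, 634 when EMT6-PTR tumor 1 was and 557 when EMT6-PTR tumor 2 was, since fewer tumors then had to be separated. The mirrored rule gave 464 genes with a fold of 1.5, 35 with a fold of 3, 56 with a lowest mean of 5 CPM and 377 with none, and 120 to 615 with 1 tumor left out, among them 164 when EMT6-P tumor 2 was dropped and 615 when EMT6-PTR tumor 1 was. The median log2 ratio of the metastasis over the members was 1.53 under upper-quartile and under TMM scaling, 0.93 and 2.36 for members by a fold of 1.5 and 3, and 1.56 to 1.68 with 1 EMT6-P tumor left out. DESeq2 called 281 genes where edgeR called 0, and the cause was not tested. Every other fit also called 0, with 618 to 3234 genes at an unadjusted p under 0.05. Replicate numbers of the groups share only a number: deviations of same-numbered tumors correlated by 0.259, 0.252 and 0.039, not every tumor correlated best with its own number, and with a replicate block edgeR called 0 genes, with 1268 at an unadjusted p under 0.05. For 62 named members, 0 of 248 ratios under other scalings moved by more than the SD of the EMT6-PTR tumors. That SD cannot show the effect of leaving out an EMT6-PTR tumor, since without tumor 3 the ratio of Mgp went from 77.4 to 3.27 and that of Pik3r1 from 4.58 to 1.45, and the rule itself keeps these ratios above 1. Members with few EMT6-P counts are limited by depth.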

Other observations

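Tsc22d3, Fkbp5 and Sesn1 were high in EMT6-PTR tumor 3 without meeting the rule. They were chosen after their values were seen and stand for no wider group, since Ddit4, another stress gene, had 192 to 312 CPM in EMT6-P and 264, 183 and 387 CPM in EMT6-PTR tumors, and Pdk4, a kinase induced by fasting, had 84.0, 11.4 and 11.7 CPM in EMT6-PTR tumors. Tsc22d3, an anti-inflammatory protein induced by glucocorticoids, had 87.8, 40.9 and 84.2 CPM in EMT6-P tumors, 63.1, 41.9 and 590 CPM in EMT6-PTR tumors 1 to 3 and 283.5 CPM in the metastasis. Fkbp5, a co-chaperone of the glucocorticoid receptor, had 128, 86.5 and 116 CPM in EMT6-P, 102, 93.2 and 501 CPM in EMT6-PTR tumors and 364 CPM in the metastasis. For both, tumors 1 and 2 were within the control range, and tumor 3 and the metastasis were above it. Sesn1, a stress protein that restrains mTOR, had 20.9, 14.9 and 21.7 CPM in EMT6-P, 25.9, 18.6 and 233 CPM in EMT6-PTR tumors and 88.0 CPM in the metastasis. Its tumor 2 was within the control range, which kept it out of the members. Among members, Zbtb16, a transcription factor that glucocorticoids induce in many cells, had 0.0488, 0.0912 and 0.194 CPM in EMT6-P, 2.15, 0.245 and 2.98 CPM in EMT6-PTR tumors and 12.7 CPM in the metastasis.

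The collagen Col3a1 and the proteoglycan Dcn, both fibroblast markers, were no members either. Dcn had 32.3, 47.9 and 56.7 CPM in EMT6-P and 38.5, 91.6 and 3396 CPM in EMT6-PTR tumors, with 900.0 CPM in the metastasis. Col3a1 had 815, 716 and 1197 CPM in EMT6-P and 1017, 1756 and 9225 CPM in EMT6-PTR tumors, with 6732 CPM in the metastasis. Tumor 1 was within the control range for both. Col1a1, a fibrillar collagen chain, had 2432 to 3282 CPM in EMT6-P and 3205, 3259 and 2796 CPM in EMT6-PTR tumors, so that tumor 3 was within the control range. The proliferation genes Mki67 and Top2a had 38.6 and 17.8 CPM in EMT6-PTR tumor 3 and 41.2 and 23.1 CPM in the metastasis, against 185 to 258 and 212 to 323 CPM in the remaining primary tumors.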
